A study of Mus musculus with 12 samples.

Results

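The replication and mitosis genes are 47 mouse genes whose products copy DNA in S phase and divide the chromosomes and the cell in M phase. They were taken by symbol from a list, and all 47 were rows of the expression table of 17362 genes and passed the filter on low values that left 17086 genes for testing. RNA was sequenced from marrow cells sorted by endothelial surface markers (endothelial cells line blood vessels), after the tibia, femur and iliac bone of untreated B6 mice had been crushed. The 12 libraries, 3 for each population, came from 4 gates. CD200-high capillaries were gated as CD200Hi, Sca1+, CD31+, EMCN- and CD45-. Cells of type H vessels, which carry much endomucin (EMCN), were gated as EMCN+, Sca1+, CD31+ and CD45-. Arterial cells were CD200-, Sca1+, CD31+ and CD45-, and the cells labelled sinusoidal were CD31+, Sca1+ and CD45-. That last gate, as labelled, contains the other 3. All mice were of the same B6 genotype, the libraries were biological triplicates from 6 mice, and the age of the mice and any pooling of them are not given in the sources used here.

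A cell that prepares to divide first loads the MCM helicase onto replication origins, with Cdc6 and Cdt1 as loaders. Cdc45 and the GINS complex then turn it into an active helicase, and polymerases, clamp, clamp loader and ligase copy the strands from nucleotides that ribonucleotide reductase and thymidylate synthase supply. Transcription of many of these genes is known to depend on E2F factors late in G1. Cyclin B with Cdk1 drives entry into mitosis, the kinases Aurora, Plk1, Bub1 and Ttk govern the spindle and its checkpoint, and Cdc20 and Ube2c act with the ubiquitin ligase APC/C that ends mitosis. Genes of this later group are known to be switched on in G2 through CCAAT boxes and a short promoter element called the CHR. In adult marrow most endothelial cells are quiescent, while precursors of blood cells divide often.

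Promoters were searched for the elements just named, and a few are shown for the matches they hold. RefSeq promoter windows (assembly GRCm38.p6, 250 bases before to 50 bases after the transcript start) matched 38 of the 47 genes with 43 windows. Aurkb, Ccna2, Ccne2, Cdc25c, Gins1, Gins2, Kif20a, Mcm4 and Tpx2 had no entry. The replication set here is the 22 genes of licensing, fork, nucleotide supply and the cyclins E, and the mitosis set the other 25. E2F words (TTTCCCGC, TTTCGCGC, TTTGCCGC or TTTGGCGC on either strand, where words may overlap) were found in 36.4% of 22 replication windows, in 4.76% of 21 mitosis windows and in 2.26% of all 32851 windows. The CHR (TTTGAA on either strand) was found in 13.6% of replication windows, in 76.2% of mitosis windows and in 17.9% of all windows. The CCAAT box (CCAAT on either strand) was found in 54.5% of replication windows, in 90.5% of mitosis windows and in 37.4% of all windows. CHR and CCAAT occurred together in 9.09% of replication windows, 76.2% of mitosis windows and 6.95% of all windows. Median GC content was 57.5% in replication windows, 60.7% in mitosis windows and 52.7% in all windows. A match describes letters and is not a measured binding site. The 150 bases before the start of Mcm6, a subunit of the MCM helicase (chr1:128359706-128359855, minus strand), held 3 E2F matches, of which 2 overlap, and these are in capitals.
Mcm6: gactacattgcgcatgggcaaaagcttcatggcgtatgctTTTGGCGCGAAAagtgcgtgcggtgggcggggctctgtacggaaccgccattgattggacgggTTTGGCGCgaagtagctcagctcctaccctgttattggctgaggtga
In the mitosis genes that follow, capitals mark the CHR and the CCAAT box. They are Cdk1, the mitotic kinase (chr10:69352913-69353062, minus strand), Cdc20, the activator of APC/C (chr4:118437344-118437493, minus strand), Ube2c, its ubiquitin-conjugating enzyme (chr2:164769779-164769928, plus strand), and Mki67, which encodes the proliferation antigen Ki-67 (chr7:135716380-135716529, minus strand). Cdk1 was the only mitosis window with an E2F word, left in lower case here.
Cdk1: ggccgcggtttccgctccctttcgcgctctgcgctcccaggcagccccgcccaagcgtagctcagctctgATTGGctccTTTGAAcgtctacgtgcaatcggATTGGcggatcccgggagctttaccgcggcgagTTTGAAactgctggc
Cdc20: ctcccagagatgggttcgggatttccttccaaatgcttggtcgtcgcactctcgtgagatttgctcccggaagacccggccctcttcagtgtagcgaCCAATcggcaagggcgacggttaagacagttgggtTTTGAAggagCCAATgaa
Ube2c: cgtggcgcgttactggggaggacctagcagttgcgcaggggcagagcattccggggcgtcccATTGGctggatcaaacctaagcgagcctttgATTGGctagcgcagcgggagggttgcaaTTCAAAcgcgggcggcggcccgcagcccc
Mki67: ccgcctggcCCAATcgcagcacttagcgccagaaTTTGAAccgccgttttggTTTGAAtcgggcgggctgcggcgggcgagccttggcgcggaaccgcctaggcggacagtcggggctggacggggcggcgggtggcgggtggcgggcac

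Depth was 7.33 to 21.6 M listed reads a library (M, 1e6). Values are log2 CPM (reads per 1e6 after the authors' scaling of library sizes, 0.5 read having been added), given as mean ± SD of 3 libraries, and differences are log2 ± SE from limma with Benjamini-Hochberg adjustment over all genes tested. A gene is called at an adjusted p under 0.05. Where a library has few or no reads, the log2 value rests on the 0.5 read added, so differences of such genes depend on it. The libraries labelled sinusoidal went against their labels. The 12 sinusoidal endothelial markers held 0.259% to 0.497% of listed reads in CD200-high libraries, 2.26% to 2.58% in type H, 0.220% to 0.281% in arterial and 0.0249% to 0.0401% in those labelled sinusoidal, the lowest of the 4 populations. Ly6a, which encodes Sca1, was lower in them than in arterial libraries (arterial minus sinusoidal 5.73 ± 0.32, adjusted p = 9.35e-07), and Cdh5, which encodes VE-cadherin of endothelial junctions, had 16, 8 and 24 reads there against 2211, 2840 and 1547 reads in arterial libraries. They are called sinusoid-labelled below. In 14 of the 47 genes, exons overlapped those of a gene on the opposite strand in the GENCODE M21 annotation, and the strand counted is not stated, so reads of the pair cannot be told apart. The overlap covered over 10% of exon bases in 9 of them, with 78.8% in Fen1, 70.7% in Gins2, 31.8% in Kif20a, 22.8% in Ube2c and 21.8% in Prc1.

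Replication and mitosis genes took a small share of the reads in CD200-high and type H libraries and a severalfold larger one in arterial and sinusoid-labelled libraries. The 47 genes together held 0.0622%, 0.109% and 0.0702% of listed reads in CD200-high, 0.0675%, 0.113% and 0.0705% in type H, 0.414%, 0.325% and 0.275% in arterial and 0.503%, 0.564% and 0.498% in sinusoid-labelled libraries. CD200-high and type H ranges overlapped, arterial libraries all lay above both, and sinusoid-labelled libraries all lay above arterial ones. The 22 replication genes held 0.0368% to 0.0588% in CD200-high libraries, 0.0436% to 0.0563% in type H, 0.135% to 0.195% in arterial and 0.274% to 0.312% in sinusoid-labelled libraries. The 25 mitosis genes held 0.0254% to 0.0502% in CD200-high libraries, 0.0238% to 0.0567% in type H, 0.141% to 0.219% in arterial and 0.222% to 0.252% in sinusoid-labelled libraries. The ratio of the mitosis share to the replication share was 1.12, 0.974 and 1.04 in arterial libraries and 0.792, 0.81 and 0.818 in sinusoid-labelled ones, which did not overlap. That ratio ranged from 0.689 to 0.865 in CD200-high and from 0.513 to 1.01 in type H libraries. In RNA from sorted bulk samples, fewer dividing cells and less of this RNA per cell cannot be told apart.

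**Figure D1:**
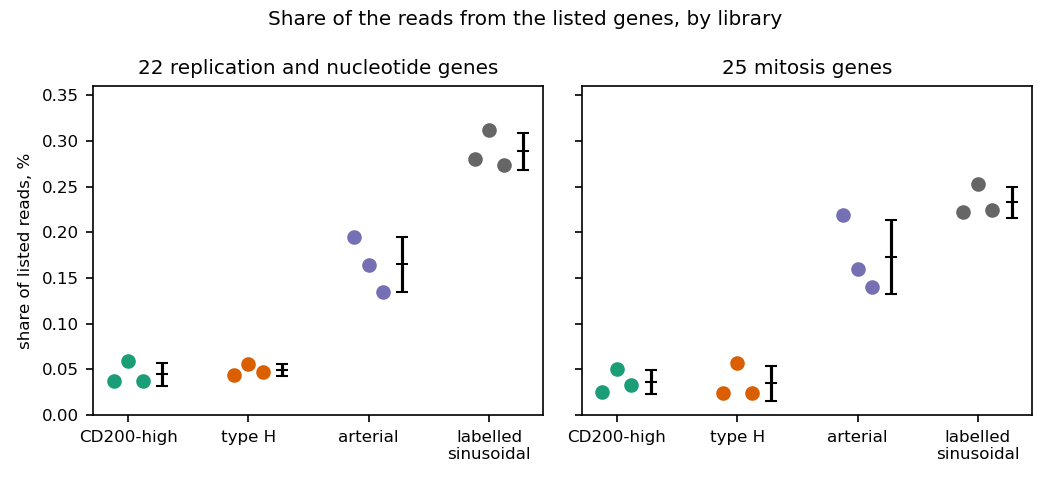
Share of listed reads (%) from 22 replication and nucleotide genes (left) and 25 mitosis genes (right), with 1 point per library and bars for the mean ± SD of 3 libraries. CD200-high and type H libraries lie at or under 0.0588% for the replication genes, and the arterial and sinusoid-labelled libraries lie at 0.135% and above.

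**Figure D2:**
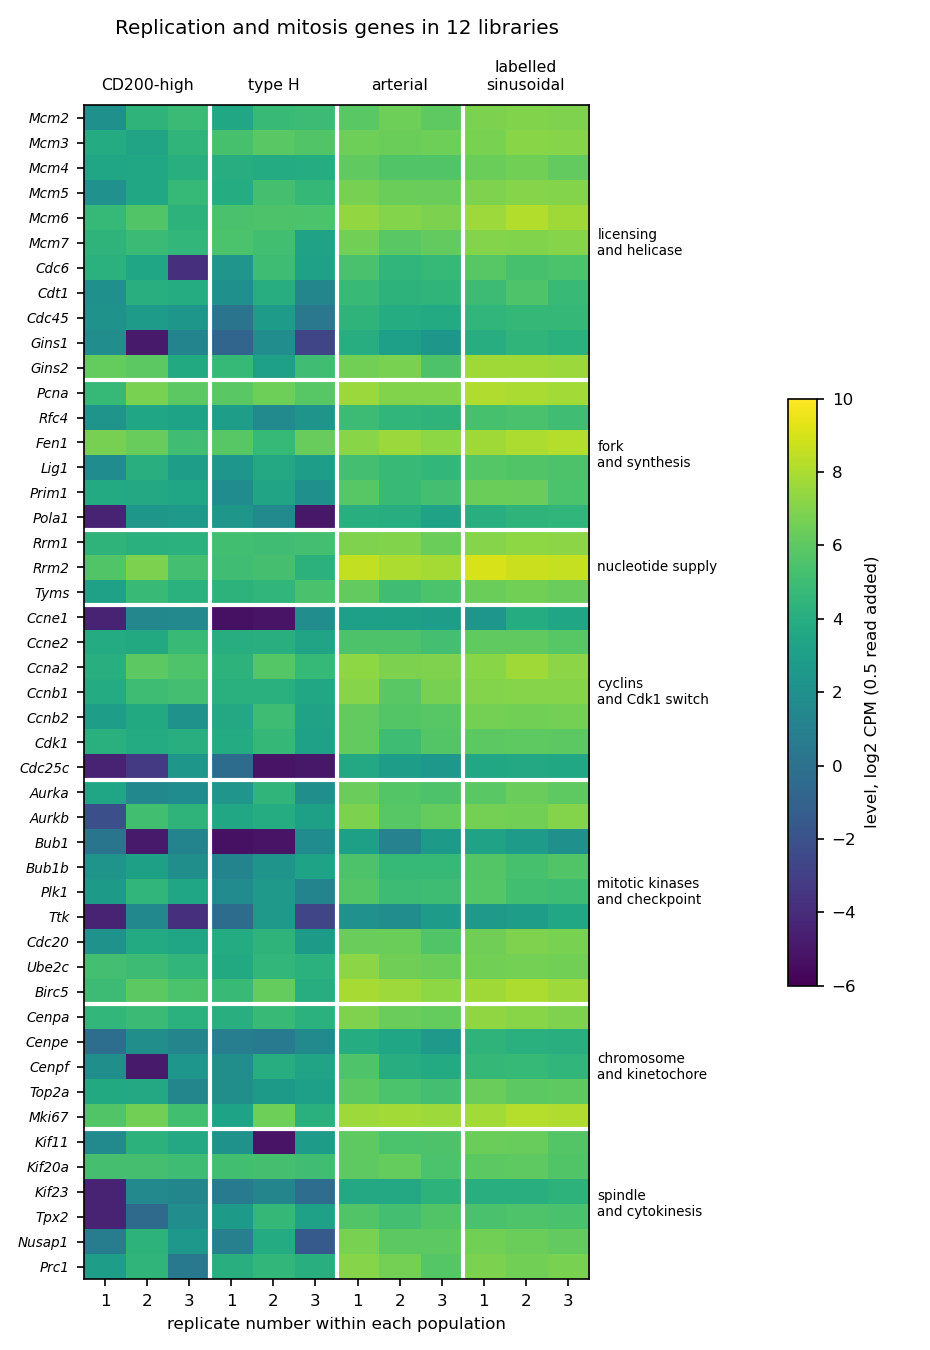
Level (log2 CPM, colour) of each of the 47 genes (rows, grouped by role) in each of the 12 libraries (columns, grouped by population). Most rows step up between the type H and the arterial columns, and dark cells in the CD200-high and type H columns are libraries with few or no reads of that gene.

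Licensing factors and helicase subunits, 11 genes, were lower in CD200-high and type H than in both other populations for most members. Mcm4, a helicase subunit, had 3.39, 3.62 and 4.05 log2 CPM in CD200-high, 3.97, 3.83 and 3.90 in type H, 6.10, 5.64 and 5.68 in arterial and 6.40, 6.57 and 6.19 in sinusoid-labelled libraries. The first 2 populations overlapped and the arterial libraries lay between them and the sinusoid-labelled ones, with no overlap. Mcm3, another subunit of the same ring, had 3.83, 3.36 and 4.46 in CD200-high libraries, 5.37, 5.91 and 5.66 in type H, 6.49, 6.38 and 6.49 in arterial and 6.79, 7.17 and 7.07 in sinusoid-labelled libraries. Mcm3 differed from Mcm4 in its type H libraries, which lay apart from CD200-high and closer to arterial. The other subunits Mcm2, Mcm5, Mcm6 and Mcm7 averaged 3.46 to 4.90 in CD200-high libraries, 4.48 to 5.47 in type H, 6.14 to 7.10 in arterial and 6.91 to 7.84 in sinusoid-labelled libraries. Of the group, 6 of 11 were called lower in CD200-high and 6 of 11 in type H when each was set against arterial. Against sinusoid-labelled libraries, 9 of 11 were called lower in each. Of all genes tested, 8.15% were called lower in CD200-high and 12.7% in type H against arterial libraries. Against sinusoid-labelled libraries it was 14.6% in each, and these shares also stand beside the counts of called genes in the roles below. Cdc6, the ATPase that loads the helicase, was called in no comparison. It had 205, 154 and 0 reads in CD200-high and 98, 581 and 137 in type H libraries, against 705, 364 and 244 in arterial and 1046, 998 and 910 in sinusoid-labelled ones.

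Fork and synthesis genes, 6 in number, were called lower for 3 in CD200-high and 4 in type H against arterial libraries, and for 5 in each against sinusoid-labelled ones. Prim1, the primase subunit that starts each new strand, had 3.78, 3.67 and 3.42 log2 CPM in CD200-high, 1.79, 3.36 and 2.04 in type H, 5.86, 4.80 and 5.21 in arterial and 6.41, 6.36 and 5.46 in sinusoid-labelled libraries. Its CD200-high libraries all lay above type H, although the difference did not pass the test (1.23 ± 0.48, limma adjusted p = 0.123). Rfc4, a subunit of the clamp loader, had 2.31, 3.46 and 3.29 in CD200-high libraries, 2.97, 1.65 and 2.31 in type H, 4.97, 4.51 and 4.40 in arterial and 5.33, 5.39 and 5.08 in sinusoid-labelled libraries. Pcna, the sliding clamp, averaged 5.81 ± 1.06 in CD200-high libraries, 6.08 ± 0.36 in type H, 7.18 ± 0.38 in arterial and 7.95 ± 0.14 in sinusoid-labelled libraries. Its difference passed the test against sinusoid-labelled libraries only. Pola1, the catalytic subunit of polymerase alpha, had 0 reads in CD200-high replicate 1 and in type H replicate 3 and was called in no comparison.

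Nucleotide supply rests on 3 of the genes, and all were lower in CD200-high libraries than in arterial ones. Rrm1, the large subunit of ribonucleotide reductase, had 4.40, 4.18 and 4.23 log2 CPM in CD200-high, 5.15, 5.08 and 5.20 in type H, 6.93, 6.99 and 6.39 in arterial and 7.12, 7.29 and 7.23 in sinusoid-labelled libraries, so that no 2 populations overlapped. Rrm2, the small subunit, which cells make mainly in S phase, had 5.66, 6.85 and 5.23 in CD200-high libraries, 5.09, 5.30 and 4.304 in type H, 8.52, 8.06 and 7.86 in arterial and 9.02, 8.71 and 8.59 in sinusoid-labelled libraries. CD200-high and type H overlapped for Rrm2, and CD200-high averaged the higher of the 2, unlike Rrm1. Tyms, thymidylate synthase, averaged 4.03 ± 0.83 in CD200-high libraries, 4.75 ± 0.56 in type H, 5.59 ± 0.54 in arterial and 6.45 ± 0.16 in sinusoid-labelled libraries. All 3 genes were called lower in CD200-high than in arterial and than in sinusoid-labelled libraries, and type H was called lower than arterial for Rrm1 and Rrm2.

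Cyclins and the Cdk1 switch, 7 genes, were called lower in type H than in sinusoid-labelled libraries for every member and in CD200-high for 6 of 7. Ccnb1, a cyclin B that activates Cdk1, had 3.84, 5.03 and 5.24 log2 CPM in CD200-high, 4.18, 4.18 and 3.50 in type H, 7.11, 5.93 and 6.73 in arterial and 7.02, 7.09 and 7.12 in sinusoid-labelled libraries. Arterial replicate 1 lay within the sinusoid-labelled range and the other arterial libraries under it. Ccnb2, the second cyclin B, had 2.98, 3.71 and 2.17 in CD200-high libraries, 3.63, 5.05 and 3.22 in type H, 6.16, 5.71 and 5.86 in arterial and 6.64, 6.61 and 6.64 in sinusoid-labelled libraries. Cdk1 itself averaged 3.997 ± 0.16 in CD200-high libraries, 3.89 ± 0.78 in type H, 5.65 ± 0.56 in arterial and 5.999 ± 0.05 in sinusoid-labelled libraries. Ccne1, a cyclin E of the G1 to S transition, and Cdc25c, a phosphatase that activates Cdk1, were near the detection limit in both lower populations. Against sinusoid-labelled libraries, Ccne1 kept its call in type H in 11 of 21 alternative fits, and Cdc25c its call in CD200-high in 10 of 21. Ccne1 had 0, 37 and 19 reads in CD200-high and 0, 0 and 54 in type H libraries, against 134, 139 and 71 in arterial and 95, 369 and 213 in sinusoid-labelled ones.

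Mitotic kinases, the checkpoint and APC/C partners, 9 genes, had overlapping arterial and sinusoid-labelled libraries except for Cdc20. In this 1 of 9 all arterial libraries lay under all sinusoid-labelled ones, which held for 17.8% of all genes tested. Ube2c had 5.24, 4.99 and 4.50 log2 CPM in CD200-high, 3.73, 4.59 and 4.21 in type H, 7.23, 6.55 and 6.38 in arterial and 6.62, 6.64 and 6.60 in sinusoid-labelled libraries. The arterial values spanned the sinusoid-labelled ones, which no gene of the replication set showed. Cdc20 had 2.16, 3.79 and 3.40 in CD200-high libraries, 3.85, 4.38 and 2.71 in type H, 6.33, 6.39 and 5.65 in arterial and 6.56, 6.88 and 6.75 in sinusoid-labelled libraries. Birc5, the survivin subunit of the chromosomal passenger complex, averaged 5.47 ± 0.50 in CD200-high libraries, 5.002 ± 1.14 in type H, 7.61 ± 0.33 in arterial and 7.80 ± 0.22 in sinusoid-labelled libraries. Plk1, a kinase of spindle assembly, averaged 3.57 ± 0.92 in CD200-high libraries, 1.84 ± 0.67 in type H, 5.25 ± 0.40 in arterial and 5.33 ± 0.37 in sinusoid-labelled libraries. Bub1, a checkpoint kinase, was called in no comparison and had no reads in CD200-high replicate 2 and in type H replicates 1 and 2.

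Chromosome and kinetochore genes, 5 in number, were all called lower in CD200-high than in sinusoid-labelled libraries. Cenpf, with 42, 0 and 36 reads in CD200-high libraries, kept that call in 16 of 21 alternative fits, and Mki67 in 17 of 21. Cenpa, the histone H3 variant of centromeres, had 4.57, 4.93 and 4.19 log2 CPM in CD200-high, 4.01, 4.80 and 4.20 in type H, 6.88, 6.37 and 6.199 in arterial and 7.31, 7.14 and 6.93 in sinusoid-labelled libraries. Top2a, the topoisomerase that untangles sister chromatids, had 3.70, 3.65 and 1.37 in CD200-high libraries, 1.88, 2.72 and 3.01 in type H, 5.94, 5.45 and 5.21 in arterial and 6.32, 5.94 and 6.03 in sinusoid-labelled libraries. Both genes overlapped between the lower populations, and only Top2a overlapped between arterial and sinusoid-labelled libraries. Mki67 averaged 5.79 ± 0.73 in CD200-high libraries, 4.63 ± 1.63 in type H, 7.70 ± 0.10 in arterial and 8.03 ± 0.23 in sinusoid-labelled libraries, and type H replicate 2 stood at 6.45 against 3.30 and 4.14 in the other type H libraries.

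Spindle and cytokinesis genes, 6 in number, were called lower for 2 in CD200-high and 2 in type H against arterial libraries, and for 4 in CD200-high and 3 in type H against sinusoid-labelled ones. Prc1, which bundles the microtubules of the central spindle, had 2.98, 4.48 and 0.49 log2 CPM in CD200-high, 4.05, 4.58 and 4.08 in type H, 7.09, 6.67 and 5.79 in arterial and 6.86, 6.57 and 6.79 in sinusoid-labelled libraries. Tpx2, the activator of Aurora A at the spindle, had 0, 10 and 24 reads in CD200-high and 126, 450 and 137 in type H libraries, against 864, 599 and 478 in arterial and 767, 1197 and 871 in sinusoid-labelled ones. Its log2 CPM were -4.44, -0.46 and 1.85 in CD200-high libraries, 2.70, 4.64 and 3.15 in type H, 5.68, 5.22 and 5.67 in arterial and 5.42, 5.60 and 5.41 in sinusoid-labelled libraries. Kif20a, a kinesin of cytokinesis, was the flattest member, at 5.20 ± 0.14 in CD200-high libraries, 5.19 ± 0.10 in type H, 5.89 ± 0.38 in arterial and 5.88 ± 0.20 in sinusoid-labelled libraries, and was called in no comparison. Since 31.8% of its exon bases overlap Cdc23 on the opposite strand, its values may include reads of that gene. Kif11, the kinesin that separates spindle poles, had 0 reads in type H replicate 2 against 89 and 105 in the other type H libraries.

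CD200-high and type H libraries were set against each other to see whether the 2 capillary populations differ in these genes. CD200-high had 3 of the 47 genes called lower and 0 higher. The lower calls are 6.38% of the 47, near the 6.35% of all genes tested called lower, and 6.66% of all genes were called higher. Mcm3 was lower by 1.77 ± 0.28 in CD200-high (limma adjusted p = 0.00155), a 3.40-fold lower level, and the call was lost when libraries were scaled to equal pan-endothelial levels. Rrm1 differed by -0.87 ± 0.21 (limma adjusted p = 0.0181), and this call was lost without type H replicate 3, in the fit of these 2 populations alone and with voom weights, and the difference turned to 0.05 with the pan-endothelial scaling. Tpx2 differed by -4.51 ± 1.21 (limma adjusted p = 0.0291), with 0 reads in 1 of the CD200-high libraries, and lost its call without type H replicate 2, without type H replicate 3, in the fit of these 2 populations alone and without the mean-variance trend. Plk1 was the nearest to a call in the other direction, at 1.73 ± 0.53 (limma adjusted p = 0.0543), with all 3 CD200-high libraries above the type H ones. The differences of the 47 genes ranged from -4.51 to 3.27 with a median of 0.11, against -0.05 over all genes tested. At an unadjusted p under 0.05, 4 genes were higher and 3 lower by limma, and voom called 0 higher and 2 lower. With the pan-endothelial scaling, 4 members were called higher and 1 lower. The count of called genes was 5 without CD200-high replicate 2, 5 without CD200-high replicate 3, 6 without type H replicate 2 and 1 without type H replicate 3.

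CD200-high libraries were then set against arterial libraries, the population gated as CD200-. Of the 47 genes, 26 were called lower and 0 higher in CD200-high, against 8.15% of all genes tested called lower. Over the 47 genes the median was -2.32, against -0.22 over all genes, with a range from -6.54 to -0.69. The lowest was Tpx2, which had 0 reads in CD200-high replicate 1, so its value depends on the 0.5 read added. The 3 CD200-high libraries lay under all 3 arterial ones in 45 of 47 genes, which held for 19% of all genes tested. Rrm1 fell by 2.498 ± 0.21 (limma adjusted p = 9.39e-05), or 5.65-fold. Mcm4 fell by 2.11 ± 0.28 (limma adjusted p = 0.000826), or 4.33-fold, beside the other helicase subunits Mcm3 at -2.57 and Mcm6 at -2.21. On the mitotic side, Cenpa fell by 1.92 ± 0.30 (limma adjusted p = 0.00179) and Ube2c by 1.81 ± 0.31 (limma adjusted p = 0.00308). Cdc20 fell by 3.002 ± 0.49 (limma adjusted p = 0.00252), beside Ccnb2 at -2.96. Of the replication set 13 of 22 were called, and of the mitosis set 13 of 25. Without arterial replicate 1, 15 genes were called.

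CD200-high libraries were also set against sinusoid-labelled ones. Of the 47 genes, 40 were called lower and 0 higher in CD200-high, against 14.6% of all genes tested called lower. Their median difference was -2.94, against -0.22 over all genes, and the range was -6.49 to -0.68. All 3 CD200-high libraries lay under all 3 sinusoid-labelled ones in 47 of 47 genes, which held for 25.1% of all genes tested. Rrm1 fell by 2.95 ± 0.21 (limma adjusted p = 2.24e-06), or 7.71-fold, and Mcm3 by 3.13 ± 0.28 (limma adjusted p = 1.28e-05), or 8.76-fold. Ccnb2 fell by 3.68 ± 0.48 (limma adjusted p = 0.000181) and Cdc20 by 3.61 ± 0.49 (limma adjusted p = 0.000225), 12.8-fold and 12.2-fold lower. Mcm4 at -2.70, Mcm6 at -2.94, Cenpa at -2.57 and Rrm2 at -2.86 completed the 8 called genes with the smallest adjusted p. The 7 genes not called, Cdc6, Cdt1, Pola1, Ccne1, Bub1, Kif11 and Kif20a, had differences from -4.25 to -0.68.

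Type H libraries were next set against arterial ones. Of the 47 genes, 30 were called lower and 0 higher in type H, against 12.7% of all genes tested called lower. The median difference was -2.29, against -0.20 over all genes, and the range was -6.53 to -0.70. The 3 type H libraries lay under all 3 arterial ones in 42 of 47 genes, which held for 22.9% of all genes tested. Rrm2 fell by 3.25 ± 0.38 (limma adjusted p = 0.000178), or 9.50-fold. Ube2c fell by 2.54 ± 0.31 (limma adjusted p = 0.000202), or 5.82-fold. Plk1 fell by 3.41 ± 0.53 (limma adjusted p = 0.000995), or 10.6-fold, and Prim1 by 2.89 ± 0.48 (limma adjusted p = 0.0014). Rrm1, Cenpa, Mcm4 and Ccnb1 followed at -1.63, -2.15, -1.91 and -2.64. Mcm3, called lower in CD200-high against arterial and against sinusoid-labelled libraries, was not called here at -0.80 (limma adjusted p = 0.0661).

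Type H against sinusoid-labelled libraries gave 37 of 47 genes called lower and 0 higher in type H, against 14.6% of all genes tested called lower. The median difference was -2.80, against -0.21 over all genes, with a range from -7.05 to -0.69. All 3 type H libraries lay under all 3 sinusoid-labelled ones in 46 of 47 genes, which held for 25.2% of all genes tested. Rrm2 fell by 3.88 ± 0.38 (limma adjusted p = 1.76e-05), or 14.7-fold, and Rrm1 by 2.08 ± 0.21 (limma adjusted p = 2.12e-05), or 4.22-fold. Ccnb1 fell by 3.12 ± 0.40 (limma adjusted p = 0.000124) and Prim1 by 3.68 ± 0.48 (limma adjusted p = 0.000142), 8.71-fold and 12.8-fold lower. Cenpa at -2.79, Mcm4 at -2.49, Ube2c at -2.44 and Mcm6 at -2.37 stood beside them. In the 4 comparisons of CD200-high and type H with arterial and sinusoid-labelled libraries, 0 members were higher by limma at an unadjusted p under 0.05, and voom called 0 higher. These 4 comparisons share their libraries in pairs, so their values are given side by side and are not independent of each other.

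Arterial against sinusoid-labelled libraries gave 0 of 47 genes called by limma, against 10.2% of all genes tested called in either direction and 2.14% called lower. At an unadjusted p under 0.05, 0 genes were higher and 1 was lower, Mcm6 at -0.73 ± 0.30 (limma adjusted p = 0.172). Voom weights called 2 genes lower, and the fit of these 2 populations alone called 7 lower. With libraries scaled to equal pan-endothelial levels, 45 of 47 were called lower, as were 73.4% of all genes tested. The members' median was -0.58, against -0.02 over all genes, with a range from -1.37 to 0.10, and 44 of 47 differences were negative. In 22 of 47 genes the 3 arterial libraries lay under all 3 sinusoid-labelled ones, which held for 17.8% of all genes tested. By set the count was 18 of 22 replication genes and 4 of 25 mitosis genes, which were Ccnb2, Cdc20, Cenpa and Cenpe. The median difference was -0.64 over the replication set and -0.38 over the mitosis set. Ube2c at 0.10, Tpx2 at 0.05 and Kif20a at 0.01 were the 3 genes with positive differences. Whether the sets differ was not tested.

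**Figure D3:**
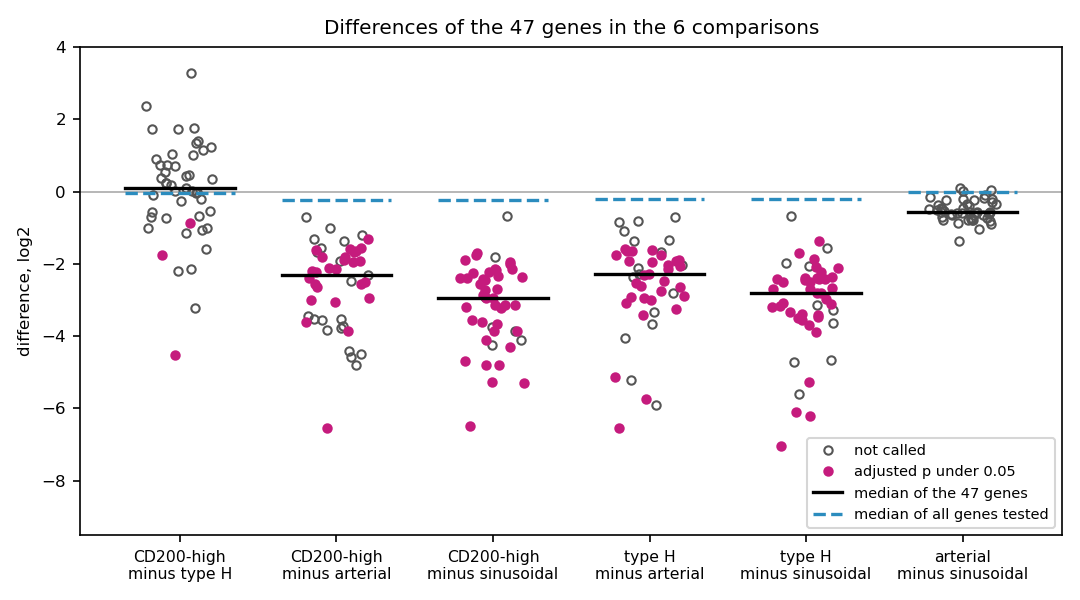
Difference (log2, y axis) of each of the 47 genes in the 6 comparisons, with filled points for genes with an adjusted p under 0.05. Solid lines are medians of the 47 genes and dashed lines medians of all genes tested; the 47 genes centre on 0.11 for CD200-high minus type H, between -2.94 and -2.29 in the next 4 comparisons and on -0.58 for arterial minus sinusoidal.

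Markers of B cell precursors and of megakaryocytes followed the order of these genes over the populations, and those of erythroid cells and neutrophils were highest in arterial libraries. The 16 B cell precursor markers, which include the surrogate light chain gene Vpreb1 and the recombinase gene Rag1, held 0.0383% to 0.0667% of listed reads in CD200-high, 0.0233% to 0.0421% in type H, 0.286% to 0.654% in arterial and 1.61% to 1.78% in sinusoid-labelled libraries. Of them, 15 of 16 were called lower in CD200-high than in arterial and 16 of 16 lower than in sinusoid-labelled libraries. In type H, too, 15 of 16 were called lower than in arterial and 16 of 16 lower than in sinusoid-labelled libraries. Of all genes tested, 8.15% and 14.6% were called lower in these CD200-high comparisons and 12.7% and 14.6% in the type H ones. In arterial libraries 2.14% of all genes tested were called lower than in sinusoid-labelled ones. In arterial against sinusoid-labelled libraries, 7 of 16 were called lower by limma, 2 to 4 without arterial replicate 2, without arterial replicate 3 or without any 1 sinusoid-labelled library, 10 without type H replicate 3 and 16 with voom weights. Rag1 was at 0 reads in all 3 CD200-high libraries, and had 2, 48 and 0 reads in type H, 802, 87 and 241 in arterial and 4216, 3070 and 2929 in sinusoid-labelled libraries. The 10 megakaryocyte and platelet markers held 0.00497% to 0.0128% in CD200-high libraries, 0.00479% to 0.00922% in type H, 0.0638% to 0.216% in arterial and 0.397% to 0.530% in sinusoid-labelled libraries. No gene of that list was at 0 in all libraries of a population. Erythroid markers, 15 genes, held 0.219% to 0.380% in CD200-high libraries, 0.366% to 0.702% in type H, 1.15% to 2.32% in arterial and 0.399% to 0.710% in sinusoid-labelled libraries. The 16 markers of neutrophils and their precursors held 0.636% to 1.11% in CD200-high libraries, 0.475% to 0.823% in type H, 2.44% to 3.65% in arterial and 0.732% to 1.26% in sinusoid-labelled libraries. The share of pan-endothelial markers ran the other way: these 16 genes held 0.295% to 0.593% in CD200-high libraries, 0.925% to 0.974% in type H, 0.191% to 0.254% in arterial and 0.0366% to 0.0395% in sinusoid-labelled libraries, where Sox17 was at 0 in all 3. By gene, 14 of 16 were called higher and 1 lower against sinusoid-labelled libraries, in CD200-high and in type H alike. Vwf is in both this list and the megakaryocyte list. The 12 arterial endothelial markers did not follow the order of the pan-endothelial share, with 0.0609% to 0.0877% in CD200-high libraries, 0.0336% to 0.0479% in type H, 0.101% to 0.114% in arterial and 0.00480% to 0.00688% in sinusoid-labelled libraries. Stromal and bone markers held 12.6% to 17.1% in CD200-high libraries, 0.498% to 0.764% in type H, 2.27% to 2.90% in arterial and 0.958% to 1.96% in sinusoid-labelled libraries. The 8 stem and progenitor markers held 0.0636% to 0.0782% in CD200-high libraries, 0.0345% to 0.0608% in type H, 0.0595% to 0.0705% in arterial and 0.0602% to 0.0638% in sinusoid-labelled libraries, while their log2 CPM averaged 2.92 in CD200-high libraries, 2.69 in type H, 5.48 in arterial and 4.02 in sinusoid-labelled libraries. Of these 8, CD200-high had 4 called lower against arterial, and 5 lower and 2 higher against sinusoid-labelled libraries. Type H had 3 called lower against arterial, and 3 lower and 2 higher against sinusoid-labelled libraries. Of all genes tested, 14.1% were called higher in CD200-high and 13.9% in type H against sinusoid-labelled libraries. Among the 3 arterial libraries, replicate 1 was the highest in replication and mitosis genes at 0.414% and in B cell precursor markers at 0.654%. It was also the highest in megakaryocyte markers at 0.216% and in erythroid markers at 2.32%. Other lists peaked elsewhere. Neutrophil markers were highest in replicate 3 at 3.65%, as were macrophage and monocyte markers at 1.26%, and stem and progenitor markers in replicate 2 at 0.0705%. The part of these markers in the differences of the 47 genes was not tested.

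**Figure D4:**
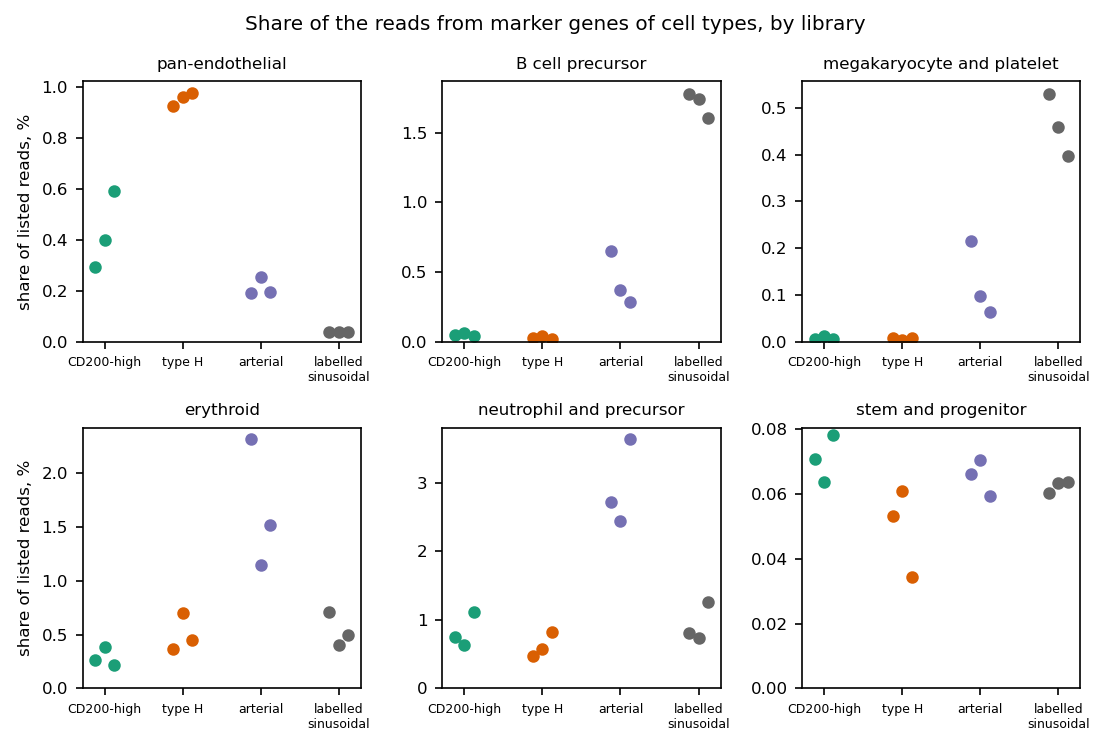
Share of listed reads (%) from 6 lists of cell type markers, with 1 point per library and axes that start at 0. B cell precursor and megakaryocyte shares follow the order of the replication and mitosis genes, with sinusoid-labelled libraries at 1.61% and above for B cell precursors, and pan-endothelial shares run the other way.

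The rest of the replication machinery was described with 45 genes outside the 47, fewer of which were called than not in the comparisons with arterial libraries. CD200-high had 0 of 45 called against type H, 14 lower against arterial, and 24 lower and 1 higher against sinusoid-labelled libraries. The type H libraries had 12 lower against arterial, and 22 lower and 1 higher against sinusoid-labelled ones. The lower calls are 31.1% and 53.3% of the list in CD200-high, against 8.15% and 14.6% of all genes tested. In type H they are 26.7% and 48.9%, against 12.7% and 14.6%. The 1 higher call is 2.22% of the list in each, against 14.1% and 13.9% of all genes tested. Median differences of the 45 were -1.57 for CD200-high and -1.37 for type H against arterial libraries. Dut, which keeps uracil out of DNA, differed by -2.67 in CD200-high against arterial (limma adjusted p = 0.00291). Rpa2 of the single-strand binding complex differed by -2.11 in type H against arterial (limma adjusted p = 0.00178). Arterial libraries had 1 of 45 called lower than sinusoid-labelled ones, the clamp loader subunit Rfc3 (limma adjusted p = 0.0175), a call lost without either of 2 arterial and either of 2 sinusoid-labelled libraries. That is 2.22% of the list, near the 2.14% of all genes tested called lower there. Where limma called 0 of 45 between CD200-high and type H, 1 was higher and 2 were lower at an unadjusted p under 0.05, voom called 0, and 3 were called without CD200-high replicate 2. Timeless, a fork protection factor, was the 1 gene called higher against sinusoid-labelled libraries (1.48 in CD200-high and 1.28 in type H). It turned to -3.37 and -4.48 with equal pan-endothelial levels, a scaling that shifts all genes of a comparison alike. Without arterial replicate 1, 8 of 45 were called for CD200-high and 7 of 45 for type H against arterial.

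Other mitosis genes were 55 in number. In CD200-high, 4 were called lower than in type H, 22 lower than in arterial and 33 lower than in sinusoid-labelled libraries. The first count is 7.27% of the list, near the 6.35% of all genes called lower there, and the others are 40% and 60%, against 8.15% and 14.6% of all genes. In type H, 22 were lower than in arterial and 35 lower than in sinusoid-labelled libraries. These are 40% and 63.6% of the list, against 12.7% and 14.6% of all genes. Arterial minus sinusoidal gave 0 of 55 by limma, against 10.2% of all genes called in either direction and 2.14% called lower. In that comparison 1 was lower at an unadjusted p under 0.05, 1 was called with voom weights and 4 in the fit of these 2 populations alone. Ect2, an activator of the GTPase RhoA at cytokinesis, had 0 reads in all 3 CD200-high libraries and 33, 100 and 30 in type H, 805, 237 and 150 in arterial and 537, 669 and 393 in sinusoid-labelled libraries. Against a floor of 3 reads per library, it was at least 8.94-fold lower in CD200-high than in type H, 76.1-fold lower than in arterial and 84.7-fold lower than in sinusoid-labelled libraries. Cks1b, a small partner of cyclin-dependent kinases, differed by -2.53 in CD200-high (limma adjusted p = 0.000945) and by -2.53 in type H (limma adjusted p = 0.00039) against arterial libraries. Mad2l1, a spindle checkpoint gene, differed by -2.06 in type H against arterial (limma adjusted p = 0.000366). Between CD200-high and type H, 7 were called without CD200-high replicate 3 and 2 in the fit of these 2 populations alone. Leaving out arterial replicate 1 left 12 called for CD200-high and 14 for type H against arterial, and leaving out arterial replicate 2 left 13 for CD200-high. Against sinusoid-labelled libraries, CD200-high had 19 called without sinusoidal replicate 2 and 21 without replicate 3, and type H had 22 without replicate 1 and 22 without replicate 2.

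Regulators of entry into the cycle that were called against arterial and sinusoid-labelled libraries were mostly lower. Of 33 such genes, CD200-high had 1 higher and 7 lower against arterial, and 2 higher and 12 lower against sinusoid-labelled libraries. Type H had 2 higher and 12 lower in each of these comparisons. The lower calls are 21.2% and 36.4% of the list in CD200-high, against 8.15% and 14.6% of all genes tested. In type H they are 36.4% in each, against 12.7% and 14.6%. The higher calls are 3.03% and 6.06% in CD200-high and 6.06% in each for type H, under the share of all genes in each comparison. Of all genes tested, 6.66% were called higher in CD200-high against type H, 4.75% against arterial and 14.1% against sinusoid-labelled libraries, 7.96% in type H against arterial and 13.9% against sinusoid-labelled libraries, and 8.09% in arterial against sinusoid-labelled libraries. The higher calls were Rb1 and the D cyclin Ccnd1. With libraries scaled to equal pan-endothelial levels they turned negative in every one of these comparisons except Rb1 in type H minus arterial. That scaling shifts all genes of a comparison alike. Against sinusoid-labelled libraries, 84% of all genes tested were then called lower in CD200-high and 90% in type H. Ccnd3, a D cyclin prominent in lymphoid cells, had 7.85, 8.56 and 7.67 log2 CPM in CD200-high, 8.40, 8.31 and 8.70 in type H, 9.68, 9.31 and 9.53 in arterial and 10.20, 10.30 and 10.13 in sinusoid-labelled libraries. It was lower by 1.48 ± 0.21 in CD200-high than in arterial libraries (limma adjusted p = 0.00109). E2f2, an activating E2F factor, averaged 3.41 ± 0.48 in CD200-high libraries, 3.78 ± 0.93 in type H, 6.21 ± 0.31 in arterial and 7.18 ± 0.14 in sinusoid-labelled libraries. Cdc25b, a phosphatase that starts Cdk1 activation, averaged 4.46 ± 0.76 in CD200-high libraries, 4.65 ± 0.56 in type H, 6.67 ± 0.35 in arterial and 8.49 ± 0.15 in sinusoid-labelled libraries, and was the 1 gene of the list called between arterial and sinusoid-labelled libraries (-1.81 ± 0.38, limma adjusted p = 0.00989).

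Rb1, the retinoblastoma protein that holds E2F factors in check, went the other way. It had 5.25, 6.12 and 6.08 log2 CPM in CD200-high, 7.86, 7.77 and 7.73 in type H, 4.68, 4.79 and 5.15 in arterial and 5.09, 4.85 and 4.78 in sinusoid-labelled libraries. Type H stood above arterial by 2.91 ± 0.26 (limma adjusted p = 3.67e-05) and above sinusoid-labelled libraries by 2.88 ± 0.26 (limma adjusted p = 8.47e-06), which turned to -2.89 with the pan-endothelial scaling, and CD200-high lay under type H by 1.97 ± 0.26 (limma adjusted p = 0.000422). With that scaling the calls of Rb1 between type H and arterial and between CD200-high and type H were lost. E2f1, an activating E2F, was called higher in CD200-high against type H (4.67 ± 1.06, limma adjusted p = 0.0128), with 134, 210 and 159 reads in CD200-high and 74, 2 and 7 in type H. Of this list CD200-high had 3 genes higher than type H, E2f1, Rbl2 and Skp2, and 1 lower, Rb1, which is 12.1% of the list, near the 13% of all genes tested called in either direction. Without CD200-high replicate 1 that contrast called 2 genes and without CD200-high replicate 2 it called 7, while voom called 2 and the fit of these 2 populations alone 1, Rb1. For type H against arterial, 14 calls became 6 to 9 when any 1 of the 3 arterial libraries or type H replicate 1 was left out, and for CD200-high against sinusoid-labelled libraries 9 were called without sinusoidal replicate 2.

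CDK inhibitors, of which 7 of 8 were in the table, divided by gene. CD200-high had 1 higher against type H, 1 higher and 2 lower against arterial, and 2 higher and 3 lower against sinusoid-labelled libraries. Type H had 1 higher and 2 lower against arterial, and 2 higher and 3 lower against sinusoid-labelled libraries, and arterial had 1 higher against the last. The 1 call of 7 against type H is 14.3%, near the 13% of all genes tested called there. Against arterial libraries, the higher and lower calls are 14.3% and 28.6% of the list in each population. Of all genes these shares were 4.75% and 8.15% in CD200-high and 7.96% and 12.7% in type H. Against sinusoid-labelled libraries they are 28.6% and 42.9% in each. Of all genes it was 14.1% and 14.6% in CD200-high and 13.9% and 14.6% in type H. The 1 higher call in arterial libraries is 14.3%, against 8.09%. Cdkn1a, which encodes the p53 target p21, had 8.95, 8.68 and 8.38 log2 CPM in CD200-high, 7.39, 7.14 and 7.66 in type H, 6.32, 6.75 and 5.997 in arterial and 6.36, 6.35 and 6.64 in sinusoid-labelled libraries. CD200-high stood above type H and arterial, by 1.27 ± 0.23 against type H (limma adjusted p = 0.00311) and by 2.32 ± 0.23 against arterial (limma adjusted p = 0.000199), and both held with libraries scaled to equal pan-endothelial levels. Cdkn1a was also higher in CD200-high than in sinusoid-labelled libraries, by 2.23 ± 0.23 (limma adjusted p = 3e-05), but turned to -2.62 with that scaling. In this comparison the scaling adds -4.85 to the difference of every gene, so any smaller positive difference turns. It called 84% of all genes tested lower there. Cdkn1c, which encodes p57, an inhibitor known from quiescent cells, averaged 5.25 ± 1.10 in CD200-high libraries, 5.35 ± 0.44 in type H, 4.49 ± 0.75 in arterial and -0.92 ± 1.78 in sinusoid-labelled libraries, which held 2, 39 and 13 reads. Its difference was 6.17 ± 0.86 in CD200-high and 6.27 ± 0.86 in type H against sinusoid-labelled libraries, and neither kept its call with the pan-endothelial scaling. Cdkn2d, which encodes p19 of the INK4 family, ran with the members: it was lower by 1.49 ± 0.21 in CD200-high (limma adjusted p = 0.0013) and by 1.98 ± 0.21 in type H (limma adjusted p = 0.000105) than in arterial libraries.

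**Figure D5:**
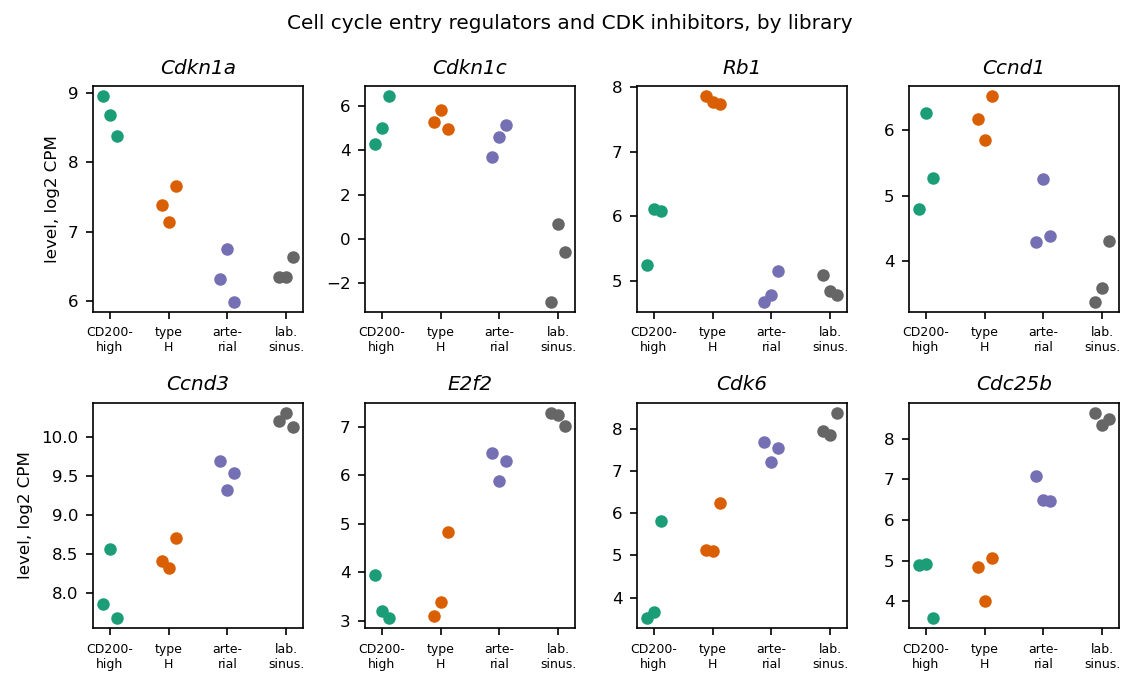
Level (log2 CPM) of 8 regulators of cell cycle entry and CDK inhibitors, with 1 point per library. Cdkn1a is highest in CD200-high libraries and Rb1 in type H libraries on the authors' scale, an order against sinusoid-labelled libraries that turns with equal pan-endothelial levels, while Ccnd3, E2f2, Cdk6 and Cdc25b are lower in both than in arterial and sinusoid-labelled libraries.

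The genes outside the 47 and the pathway lists whose pattern was most like that of the 47 were found by Pearson's r over the 12 libraries with the mean standardised level of the members, among 10868 genes that averaged at least 100 reads. The points share 4 populations, so r mostly follows the population levels and is given with no p. Hmgb2, a chromatin protein abundant in dividing cells, had the highest r at 0.991, followed by Nrgn, Ppp1r18 and Cd226 at 0.991, 0.991 and 0.989. Hmgb2 averaged 7.49 ± 0.28 in CD200-high libraries, 7.31 ± 0.35 in type H, 9.49 ± 0.34 in arterial and 9.82 ± 0.20 in sinusoid-labelled libraries. Pclaf, a partner of the clamp Pcna, averaged 4.76 ± 0.82 in CD200-high libraries, 4.17 ± 0.54 in type H, 7.54 ± 0.34 in arterial and 8.29 ± 0.34 in sinusoid-labelled libraries. Vpreb1, a B cell precursor marker also in that list, averaged 3.18 ± 0.73 in CD200-high libraries, 2.91 ± 1.82 in type H, 8.78 ± 0.85 in arterial and 10.95 ± 0.13 in sinusoid-labelled libraries, at r = 0.984. Tubb5, Hmgn2, Dlg2 and Cd48 completed the 10, down to r = 0.979.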

How the data were processed

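RNA-seq of 12 libraries was analysed from 1 deposited table. The values deposited by the authors are log2 CPM, with 0.5 read added to each count and library sizes scaled; undoing this gave whole reads within 0.01 for all values. The authors' scaling method is not stated. Per the submitters' processing notes, Trimmomatic, STAR, SAMtools, deepTools, featureCounts and R 4.3 were used, and a human build is named although symbols are mouse, so no coordinate comes from the files.

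Listed reads were 7.33 to 21.6 M per library. Genes with at least 10 scaled reads (0.63 CPM) in at least 3 libraries were kept, 17086 of 17362. limma 3.58.1 (R 4.3.3) with a mean-variance trend was fitted to all 12 libraries. The same code was run on simulated counts, which checks the code and not the calls in these libraries. Promoter words were searched with Python 3.11.15. Replicates differed beyond counting error (chi-square per degree of freedom 52.8 to 125).

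The members and lists were chosen with earlier results of these data known. Values per library are given for the 2 genes of each role with the smallest F-test p, statistics for up to 8 called members per comparison, and up to 3 called genes per other list, with a few others chosen after their values were seen. The table's columns are numbered by mouse 1 to 3 in every population and the labels by replicate; whether a number is 1 animal is not stated, and a replicate block was an alternative. P-values measure the spread between these libraries.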

Additional observations from a re-analysis of the deposited data

How the results depend on the processing

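Called members numbered 3, 26, 40, 30, 37 and 0 for CD200-high minus type H, minus arterial and minus sinusoidal, type H minus arterial and minus sinusoidal, and arterial minus sinusoidal. Same-numbered libraries did not deviate together (18 pairs, correlations -0.043 to 0.06), and with the replicate block the counts were 3, 24, 39, 32, 39 and 0. Leaving out 1 library at a time gave 1 to 6, 15 to 31, 29 to 42, 22 to 37, 34 to 42 and 0 to 0. Over all 21 alternatives, 0 of 3, 15 of 26, 29 of 40, 20 of 30 and 32 of 37 members kept their call in the first 5 comparisons. In the fits of only the 2 populations compared, CD200-high minus type H gave 1 and arterial minus sinusoidal 7; voom weights gave 2 for the last. The cause was not tested. Shifting libraries to equal pan-endothelial medians set the median of all genes to 0.87 for CD200-high minus type H and, in the same order, to -1.29, -5.07, -2.19, -5.97 and -3.80. It gave 5 called members (4 higher, 1 lower) for CD200-high minus type H, 41 for CD200-high minus arterial and 45 for arterial minus sinusoidal, all lower. This scaling shifts all genes of a library alike, so the members' median relative to all genes (0.15, -2.09, -2.72, -2.09, -2.60 and -0.56) is the same by construction. The same scaling turned Rrm1 in CD200-high minus type H to 0.05, Cdkn1a to -2.62 in CD200-high minus sinusoidal, -0.94 in type H minus arterial and -4.82 in type H minus sinusoidal, and Rb1 to -2.89 in type H minus sinusoidal. Library totals as scaling moved the median of all genes to -0.18, -0.41, -0.53, -0.25, -0.38 and -0.14 and the members' median to -0.03 in CD200-high minus type H. Of all genes called, the share lower was 63.2% in CD200-high minus arterial, 50.9% in CD200-high minus sinusoidal and 20.9% in arterial minus sinusoidal, against 75.4%, 64.5% and 30.9% with library totals and 97.3%, 98.9% and 98.5% with the pan-endothelial scaling. Cdc6, Pola1, Bub1, Ccne1, Gins1, Cdc25c, Ttk, Cenpf, Kif23, Tpx2 and Kif11 had 0 reads in at least 1 CD200-high or type H library. Their log2 values there are those of the 0.5 read added. Of these, Gins1, Cdc25c, Ttk, Cenpf, Kif23 and Tpx2 were called lower in CD200-high minus sinusoidal. Tpx2 was also called lower in CD200-high minus arterial and in CD200-high minus type H. Ccne1, Cdc25c and Kif11 were called lower in type H minus sinusoidal, and Cdc25c and Kif11 also in type H minus arterial.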
